A study of Mus musculus with 8 samples.

Results

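The genes described here are 9 members of PI3K, FOXO and mTOR signalling: *Irs1*, *Irs2*, *Pik3r1*, *Inpp5d*, *Foxo1*, *Foxo3*, *Foxo4*, *Tsc1* and *Rictor*. They were chosen by name, with earlier results of these data known. They are 9 of 21864 protein-coding genes, of which 6977 had an m6A peak in at least 1 mouse. Peaks came from MeRIP-Seq, in which RNA fragments bound by an m6A antibody (IP) are sequenced beside the unselected RNA (input), and each peak was given to the protein-coding gene with the largest exon overlap on its strand. RNA was taken from bone marrow-derived macrophages (BMDMs) of C57BL/6 mice aged 8 weeks, grown for 7 days with M-CSF at 40 ng/mL. The WT mice (*Mettl3*fl/fl, *Lyz2*+/+) carried floxed *Mettl3* without Cre and were, by the study's methods, littermates of Cre carriers, and the KO mice (*Mettl3*fl/fl, *Lyz2*cre/+) carried the same floxed gene with Cre expressed from *Lyz2*, a gene of myeloid cells. *Mettl3* encodes the catalytic subunit of the m6A methyltransferase. There were 2 mice per genotype with an IP and an input library each, 8 libraries in all, and each mouse gave 1 list of peaks, named WT-1 and WT-2 or KO-1 and KO-2 after the genotype.

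Insulin, growth factors and many immune signals activate PI3K, which makes the lipid PIP3 at the plasma membrane and so recruits the kinase AKT. AKT phosphorylates FOXO transcription factors, which then leave the nucleus, and inhibits the TSC complex, a brake on the kinase complex mTORC1. In macrophages this pathway serves survival, growth, metabolism and the response to inflammatory signals.

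WT-1 held 6159 peaks and WT-2 held 6263, KO-1 held 6378 and KO-2 held 6684. Reads are not counted in these lists, which give a position, a strand and a score per peak. Library depth is therefore unknown, and genes were compared by whether a peak was listed, not by how strong it was. A gene without a listed peak may be expressed or not. No list had a peak on *Mettl3*, which leaves the deletion unchecked here. The macrophage genes *Csf1r*, *Adgre1*, *Itgam*, *Cd68*, *Lyz2* and *Spi1* had no listed peak, so the macrophage label could not be checked from them. Among genes of other bone marrow cells, *Cd4* had 1 peak in each WT list and none in the KO lists, *Col1a1* had 1 peak in KO-1, *Pdgfrb* had 1 peak in each list but KO-2, and *Cd79a*, *Ebf1*, *Cd3e*, *Gata1* and *Klf1* had none.

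Of the 9 genes, WT-1 listed 8 with 16 peaks, WT-2 listed 7 with 18, KO-1 listed 8 with 15 and KO-2 listed 6 with 14, which makes 63 peaks. Each member had a peak in at least 1 list. Because the members were chosen with earlier results known, their presence in the lists says nothing about the pathway as a whole. *Irs2*, *Pik3r1*, *Foxo3*, *Tsc1* and *Rictor* had a peak in each of the 4 lists, a pattern shared by 2123 protein-coding genes, or 9.71%. One member, *Inpp5d*, was listed in both WT mice and in neither KO mouse, out of 7 members listed in both WT mice. Over all genes listed in both WT mice, 9.83% were in neither KO list. None of the 6 members with a peak in both KO lists lacked one in both WT lists, where the share over all genes was 10.7%. With so few members, neither count stands apart from these shares.

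**Figure D1:**
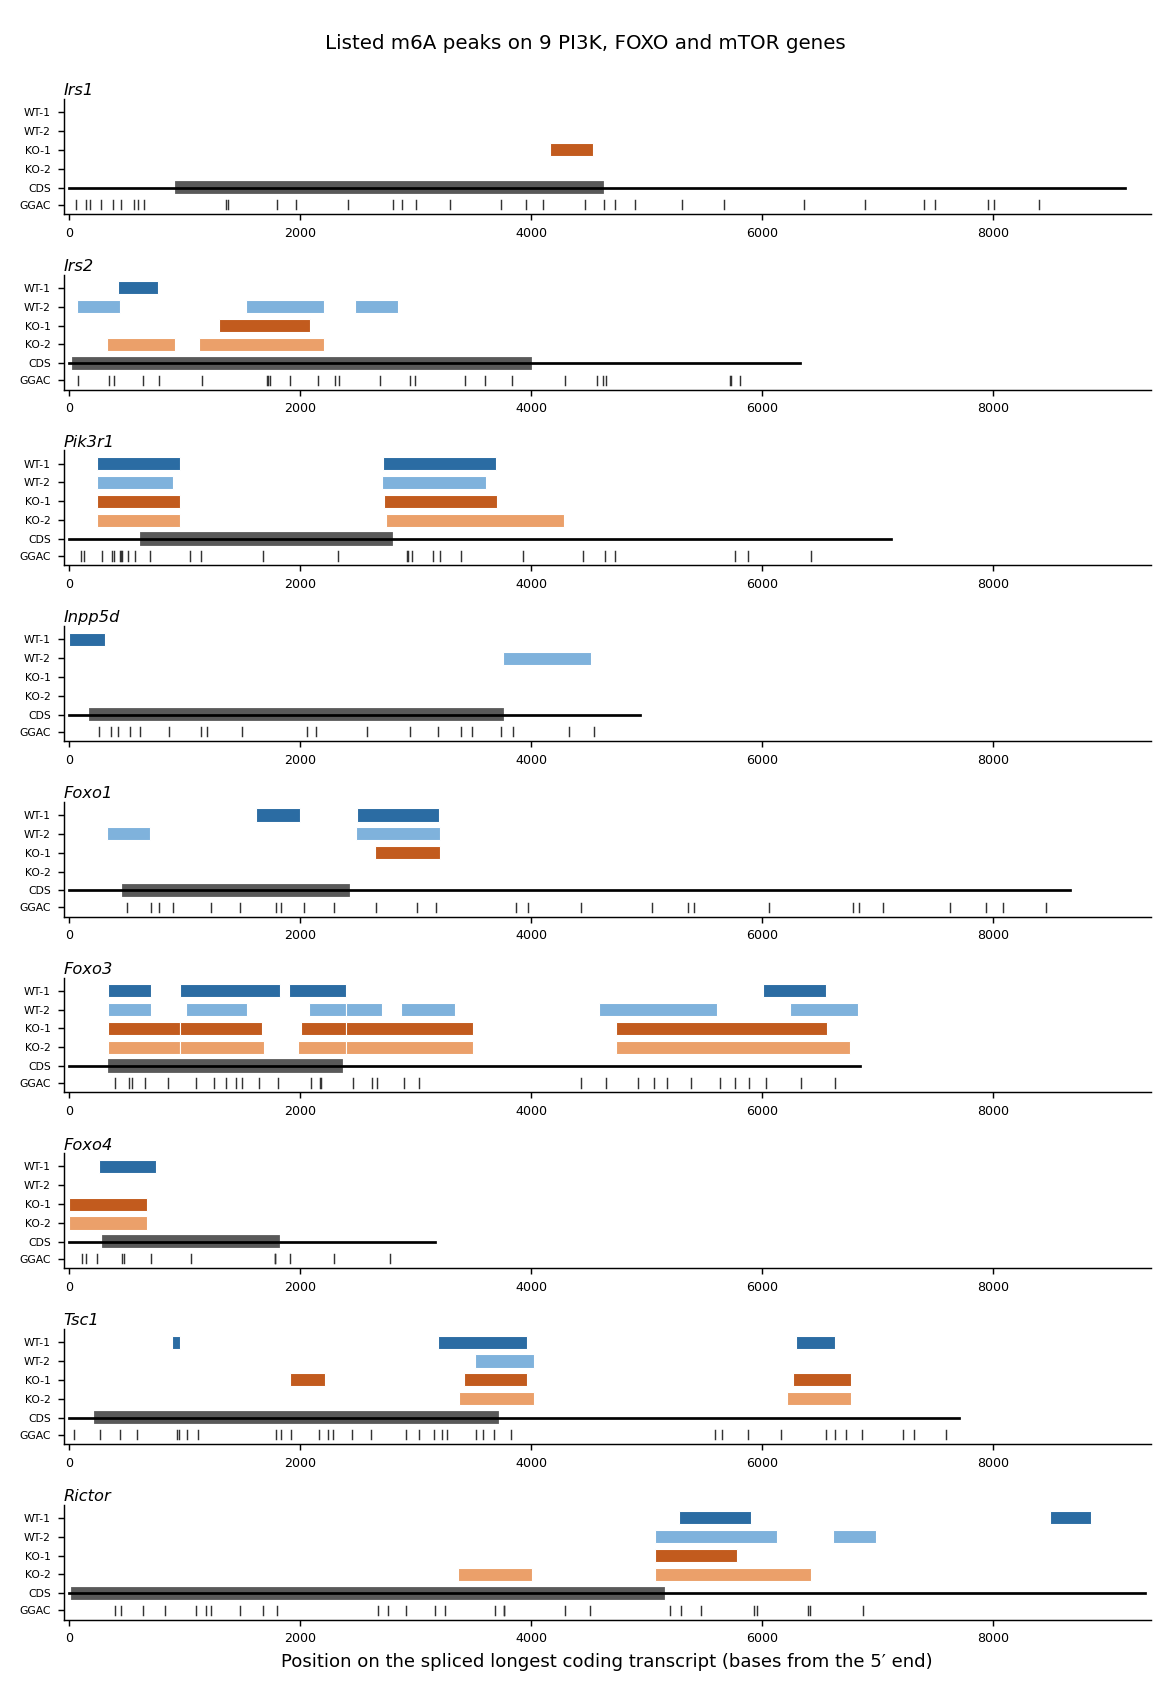
Listed m6A peaks of the 4 mice (coloured bars, 1 row per list) on the spliced longest coding transcript of each of the 9 genes, in bases from the 5′ end, with the coding sequence as a dark box and each GGAC as a tick. *Foxo3* carried 21 of the 63 peaks, and the *Pik3r1* peaks lay at the same places around the start and stop codons in the 4 lists.

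*Irs1* and *Irs2* encode the insulin receptor substrates, docking proteins that carry the signal from the insulin and IGF1 receptors to PI3K. Exon 1 holds all of the coding sequence of *Irs1*, where it is 4640 bases long, and nearly all of that of *Irs2*, where it is 3989 bases long, and every peak of both genes lay wholly in the coding sequence of that exon. *Irs1* had 1 peak, in KO-1, at chr1:82286881-82287258 on the minus strand (GRCm38, as all positions here). It covered codons 1079 to 1205, and 49.2% of the peaks in KO-1 had a lower score. A peak in KO-1 and in no other list was a pattern of 399 genes.

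*Irs2* had 1 peak in WT-1 and 3 in WT-2, beside 1 in KO-1 and 2 in KO-2. WT-2, KO-1 and KO-2 shared 557 bases at chr8:11006377-11006933, codons 500 to 685, with 4 copies of GGAC, the core of the sequence most often methylated in mRNA. A second place nearer the 5′ end had peaks in WT-1, WT-2 and KO-2, but these shared just 13 bases. The bases shared by the WT lists came to 0.00739 of the bases under a peak in either, against 0.472 for the KO lists, so the gene was listed in all mice without a place common to all of them. The GGAC nearest the middle of the 557 shared bases, in capitals, is at chr8:11006706-11006735, and is shown because it lies in the longer of the stretches that 3 lists shared on *Irs2*.
Irs2 coding sequence, minus strand: ggactgaggaagaGGACttattccctaacc

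*Pik3r1* encodes p85α, the regulatory subunit that binds phosphorylated receptors and adaptors and holds the catalytic subunit of PI3K. It had 2 peaks in each of the 4 lists, and all 8 had the score 3100, the most frequent score of the lists, which many other peaks shared. Lower scores were held by 89.7% of the peaks of WT-1 and 86.5% of those of WT-2, and by 83.8% of the KO-1 and 80.5% of the KO-2 peaks. The score 3100 itself was held by 9.92% of the peaks of WT-1, 12.5% of WT-2, 15.6% of KO-1 and 18.7% of KO-2. The shares of lower scores thus fell with the number of ties, at the same score. The peaks over the start codon in exon 2 were 917 and 658 bases wide in WT-1 and WT-2 and 785 and 820 bases wide in KO-1 and KO-2, and in the direction of transcription all began at base 101758039, the 5′ edge of the exon. Their 658 shared bases, chr13:101757382-101758039, held 380 bases of 5′-UTR, the first 93 codons and 9 copies of GGAC, or 13.7 per kb. The peaks over the stop codon in exon 16 were, in the same order, 978, 905, 977 and 1538 bases wide and shared 863 bases, chr13:101684068-101684930, with 6 copies of GGAC. The peaks varied little in place: of the bases under a peak in either list of a pair, at least 0.634 were shared in each of the 6 pairs of lists, 0.813 for the WT pair and 0.732 for the KO pair. One site from each stretch is shown, at chr13:101757696-101757725 and chr13:101684514-101684543, with GGAC in capitals.
Pik3r1 5′-UTR, minus strand: aaaacgtaaactcGGACggcagtgtgcgag
Pik3r1 3′-UTR, minus strand: tctctccgtgcagGGACaaagaggccttta

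*Inpp5d* encodes SHIP1, a lipid phosphatase of blood cells that removes a phosphate from PIP3. Each WT list had 1 peak on it and the KO lists had none, a pattern of 277 protein-coding genes. The WT-1 peak, chr1:87620312-87620617 on the plus strand, began at the first base of exon 1 and ran over the start codon to codon 43, and 9.87% of the peaks of that list had a lower score. In WT-2 the peak was at chr1:87719326-87720087, in the 3′-UTR in exon 27, and 67.7% of the peaks had a lower score. The WT peaks shared 0 bases, so the call by genotype rests on different ends of the transcript, and neither place was listed in more than 1 mouse.

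*Foxo1*, *Foxo3* and *Foxo4* encode forkhead transcription factors that AKT keeps out of the nucleus. *Foxo1* had 2 peaks in each WT list, 1 in KO-1 and none in KO-2, a pattern of presence that 198 genes had. A stretch of its 3′-UTR in exon 3, chr3:52347204-52347753 on the plus strand, lay under a peak in KO-1 and both WT lists. Each of the 3 copies of GGAC in these 550 bases was followed by T. The scores there were low, with 2.21% of the peaks below in WT-1, 29.7% in WT-2 and 14.6% in KO-1. The other peaks were in 1 list each, over the start codon in WT-2 (chr3:52268664-52269031) and in the coding part of exon 2 in WT-1 (chr3:52345572-52345948).

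*Foxo3* had 4 peaks in WT-1 and 7 in WT-2, and 5 in each KO list. Its 21 peaks were more than those of 99.8% of the genes with a peak. Peaks covered 32.9% of its exon bases in WT-1 and 51.5% in WT-2, beside 65.2% in KO-1 and 68.3% in KO-2, so both KO lists were above both WT lists although WT-2 had the most peaks. The KO lists shared 0.951 of the bases under a peak in either, and the WT lists 0.370. Merged over the 4 lists, the peaks formed 5 regions, 4 of them with a peak in each list.

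The first of these, chr10:42274816-42275442 on the minus strand, lay over the start codon in exon 2, and the 4 lists shared its bases from 42275068 to 42275436, codons 1 to 122. In KO-1 and KO-2 the peak ran on to codon 206 at the 3′ edge of exon 2, while in WT-1 and WT-2 it ended at codon 122. The second, chr10:42197035-42197901, lay in the coding part of exon 3, where the lists shared codons 224 to 399. Its peaks in WT-1 and both KO lists began at the 5′ edge of exon 3. In both KO lists the first 2 regions therefore adjoined in the spliced mRNA, at bases 957 and 958, and covered the coding sequence without a gap from the start codon to codon 443 in KO-1 and codon 449 in KO-2.

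The third *Foxo3* region, chr10:42196268-42196956, held the stop codon, and 165 to 198 bases of its peak in each list lay outside the longest transcript. The fourth, chr10:42185195-42186295, was the first part of exon 4, which is 3′-UTR throughout, and had peaks in all lists but WT-1. The fifth, chr10:42181860-42184105, lay near the 3′ end of the transcript, and its 306 bases common to the 4 lists held 1 copy of GGAC. Scores on this gene spread widely within a list: in KO-1, 0.125% of the peaks scored below the peak of the fifth region and 99.4% below the peak over the start codon.

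A peak over the start codon was found on all 3 of these FOXO genes in at least 1 list: in WT-2 on *Foxo1*, in the 4 lists on *Foxo3*, and in all lists but WT-2 on *Foxo4*. *Foxo4* had no other peak. It was at chrX:101254786-101255273 on the plus strand in WT-1, and both KO lists had the same coordinates, chrX:101254528-101255201, from the first base of the transcript to codon 127. Of the peaks, 24.3% had a lower score in WT-1, 25.1% in KO-1 and 3.31% in KO-2. To show the coding sequence behind these peaks, the GGAC nearest the start codon in the bases common to all peaks over it is given in capitals for each gene, at chr3:52268824-52268853, chr10:42275364-42275393 and chrX:101254970-101254999.
Foxo1 coding sequence, plus strand: tggagaccgacccGGACttcgagccgctgc
Foxo3 coding sequence, minus strand: tcgaagtggagctGGACccagagttcgagc
Foxo4 coding sequence, plus strand: ggagcccagtctgGGACagaaggtacccac

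The start of *Foxo3* is given at greater length, since it was listed in all mice on the member with the most peaks. These 300 coding bases, chr10:42275100-42275399, run from codon 12 to codon 112 and hold 4 copies of GGAC, in capitals.
Foxo3 coding sequence, minus strand: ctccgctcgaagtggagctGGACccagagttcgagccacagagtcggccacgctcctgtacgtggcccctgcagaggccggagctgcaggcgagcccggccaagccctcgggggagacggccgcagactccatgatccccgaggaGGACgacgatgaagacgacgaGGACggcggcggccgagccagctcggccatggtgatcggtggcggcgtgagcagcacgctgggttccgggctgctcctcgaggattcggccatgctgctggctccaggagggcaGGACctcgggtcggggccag

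*Tsc1* encodes hamartin, which stabilises the TSC complex. It had 3 peaks in WT-1 and 1 in WT-2, beside 3 in KO-1 and 2 in KO-2. The last exon, exon 23 of 4514 bases, held the stop codon peak of each list, and these shared 453 bases at chr2:28686976-28687428 on the plus strand, codons 1097 to 1162 with 255 bases of 3′-UTR. A second place in the same exon, chr2:28689677-28690237, lay far into the 3′-UTR and had peaks in WT-1 and both KO lists. The 2 other peaks were in 1 list each, over exon 8 in WT-1 (chr2:28665432-28665804), where 299 of its 373 bases lay outside the longest transcript, and in exon 15 in KO-1 (chr2:28676255-28676558).

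*Rictor* encodes the scaffold of mTORC2, the complex that phosphorylates AKT. Each list had 2 peaks on it but KO-1, which had 1. All lists had a peak at the start of the 3′-UTR in exon 38, and these shared 506 bases at chr15:6796365-6796870 on the plus strand. In WT-2, KO-1 and KO-2 the peak began at base 6796162, the 5′ edge of the exon, and held the stop codon, while in WT-1 it began 128 bases beyond it. Of the remaining peaks, WT-1 had one at chr15:6799578-6799940, which was the single member peak of 63 without a GGAC, WT-2 had one at chr15:6797699-6798075, and KO-2 had one in the coding part of exon 31 (chr15:6786593-6787235). One site of each of these 2 mTOR regulators, at chr2:28687127-28687156 and chr15:6796549-6796578, is shown from the bases common to the 4 lists, with GGAC in capitals.
Tsc1 coding sequence, plus strand: agctccacatcatGGACtacaatgagactc
Rictor 3′-UTR, plus strand: gtggaacaaaacaGGACatgaagacgcatc

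The WT lists had 7.5 ± 0.707 members with a peak (SD, n = 2) and the KO lists 7 ± 1.41 (SD, n = 2), with p = 1 by a two-sided exact permutation test. Peaks on members numbered 17 ± 1.41 (SD, n = 2) per WT list and 14.5 ± 0.707 (SD, n = 2) per KO list, without overlap of the genotypes. Numbers of all assigned peaks were instead higher in the KO lists, at 6027 and 6333, than in the WT lists, at 5856 and 6011. For peaks on members the same exact test gave p = 0.33, and no smaller p is possible with 2 mice per genotype. The separation was lost when *Foxo1*, *Inpp5d* or *Rictor* was left out, where a WT list and a KO list had equal numbers of peaks. The difference of -2.5 peaks turned to 1.5 when the peaks of each list were limited to the 50% that scored highest. The exon bases under peaks went the other way, with 8527 in WT-1 and 10614 in WT-2 (mean 9571 ± 1476, SD, n = 2) and 10991 in KO-1 and 12865 in KO-2 (mean 11928 ± 1325, SD, n = 2), again with an exact permutation p = 0.33. This difference of 2357.5 bases fell to 1169.5 with the 50% of peaks that scored highest (exact permutation p = 0.667). It ranged from 1314 to 3401 when 1 list was left out. Over all assigned peaks the KO lists were also above the WT lists, with 4092830 and 4625773 exon bases against 3783450 and 3963141, so the direction was not particular to the members. Most of the members' difference lay on 1 gene. Without *Foxo3*, in a comparison chosen after the values were seen, the bases were 6090 and 6798 in the WT lists and 6164 and 7804 in the KO lists, so that the genotypes overlapped, and the difference went from 2357.5 to 540 bases (exact permutation p = 0.667). The genotypes also overlapped without *Irs1*, *Foxo4* or *Tsc1*, where the difference was 2168.5, 1927.5 and 1920.5 bases. The median width of a member peak was 674 bases in KO-1 and 701 in KO-2 against 516.5 in WT-1 and 523 in WT-2, and without *Foxo3* these widths overlapped too, at 618 and 674 against 432.5 and 658 bases. Over all assigned peaks the median widths were 488 and 504 bases in WT-1 and WT-2, and 510 and 552 bases in KO-1 and KO-2.

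The 63 member peaks merged into 25 regions. Of these, 8 had a peak in all 4 lists, 6 in 3 lists, 0 in 2 lists and 11 in 1 list. Over the whole series 17.8% of regions had a peak in 4 lists, 12.7% in 3, 20.0% in 2 and 49.4% in 1. None of the 10 member regions in both WT lists was absent from both KO lists, beside 13.1% of all regions in both WT lists, and none of the 12 member regions in both KO lists was absent from both WT lists, beside 19.0% of all. On the members, the bases shared over the bases in either list were 0.345 within WT, 0.687 within KO and 0.401 to 0.497 across genotypes. The same order held over all assigned peaks, at 0.363, 0.523 and 0.377 to 0.399.

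The midpoint of the peak lay in the CDS for 9 of 16 member peaks in WT-1, 7 of 18 in WT-2, 9 of 15 in KO-1 and 9 of 14 in KO-2, and in the 3′-UTR for 6, 10, 6 and 5. Over all assigned peaks the CDS held between 44.6% (WT-2) and 50.2% (KO-1). The start codon was covered by 4, 3, 3 and 3 member peaks, or between 16.7% and 25% of those of a list, where it was covered by 7.70% to 9.86% of all assigned peaks. Between 18.8% and 28.6% of the member peaks covered the stop codon, beside 32.5% to 36.7% of all. Members are long genes, with a median transcript of 7113 bases against 3500 for genes with a peak and 2543 for all protein-coding genes, and the part of length in these counts was not tested.

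GGAC occurred in 15 of 16 member peaks in WT-1 and in all member peaks of WT-2, KO-1 and KO-2. Over all assigned peaks it occurred in 87.4% to 88.8%. The density was 5.87 to 6.24 copies per kb in member peaks and 4.64 to 4.88 in all, and the members' peaks were also wider. Scores of the member peaks spread over the whole scale, with 27 of 63 in the upper 50% of their lists. The median member peak scored above 23.8% of the WT-1 and 46.4% of the WT-2 peaks, and above 65.7% of the KO-1 and 38.9% of the KO-2 peaks.

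The 9 genes were set beside a list of 85 genes of the pathway that includes them. Of the 85, each WT list had a peak on 42, while KO-1 had one on 38 and KO-2 on 39 (mean 38.5 ± 0.707, SD, n = 2). The difference of -3.5 genes had an exact permutation p = 0.33, which became 0.667, for a difference of -3, with only the 50% of peaks that scored highest. With peaks assigned by their midpoints the difference was -2.5 genes. Over all protein-coding genes the genotypes overlapped, with a peak on 4162 and 4346 genes in the WT lists and on 4174 and 4436 in the KO lists. At least 1 list had a peak on 56 of the 85 (65.9%), and all 4 lists on 26 (30.6%). Without the 9 members these shares were 61.8% and 27.6% of 76 genes. Among all protein-coding genes they were 31.9% and 9.71%. That wider set was not matched to the list for expression or transcript length. The list was also drawn up with earlier results known, so enrichment of the pathway was not tested.

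**Figure D2:**
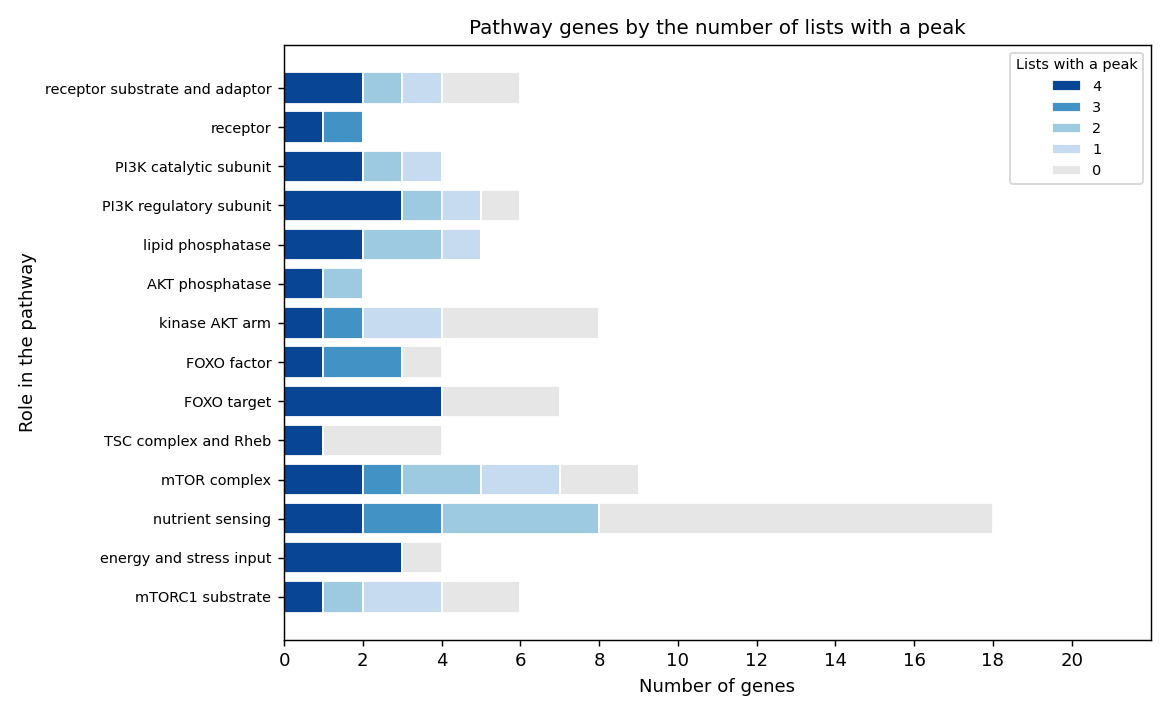
Number of genes of the 85-gene pathway list by role, with the shade of a bar segment giving the number of peak lists, from 0 to 4, in which the gene had a peak. All 5 lipid phosphatase genes and all 4 PI3K catalytic subunit genes had a peak in at least 1 list, against 8 of 18 genes of nutrient sensing.

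At the top of the pathway, *Insr*, the insulin receptor, had 13 peaks over the 4 lists and *Gab2*, an adaptor, had 9, and both were listed in each mouse. Of the catalytic subunits of PI3K, *Pik3cg* (11 peaks) and *Pik3ca* (9 peaks) were listed in each mouse, as were the regulatory subunit genes *Pik3r4* (10 peaks) and *Pik3r5* (6 peaks). The same held for the phosphatase genes *Inpp4b* (4 peaks) and *Phlpp1* (8 peaks) and, in the AKT arm, for *Gsk3b* (5 peaks). Of 8 kinase genes in that arm, 4 had no peak in any list, *Akt1*, *Akt2*, *Gsk3a* and *Sgk1*, which are named after their values were seen. Among targets of FOXO factors, *Cdkn1b*, a cell cycle inhibitor, had 9 peaks, *Sesn1* had 7 and *Bcl2l11*, which encodes the pro-apoptotic protein BIM, had 5, with each gene in the 4 lists.

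In the TSC complex and Rheb, *Tsc1* was the gene with peaks, and *Tsc2*, *Tbc1d7* and *Rheb*, also named after their values were seen, had none. *Rptor*, the scaffold of mTORC1, had 6 peaks and was listed in each mouse like *Rictor*. Further genes in all 4 lists were *Fnip2* (9 peaks) and *Fnip1* (4 peaks) in nutrient sensing, *Prkaa1* (6 peaks), *Ddit4* (4 peaks) and *Stk11* (4 peaks) in energy and stress input, and *Rps6kb1* (7 peaks), the S6 kinase gene, among mTORC1 substrates.

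Both WT mice had a peak on 35 of the 85 genes, and on 5 of these the KO lists had none: *Pik3ap1*, *Pik3cd*, *Inpp5d*, *Inppl1* and *Flcn*. That is 14.3%, beside 9.83% over all genes. Of 31 genes with a peak in both KO lists, 2 had none in the WT lists, *Phlpp2* and *Depdc5*, or 6.45% beside 10.7%. The WT peaks of *Flcn*, a regulator of nutrient signalling to mTORC1, overlapped over the stop codon at chr11:59791632-59792719 and chr11:59791709-59792777. Those of *Pik3cd*, the PI3K catalytic subunit of leukocytes, overlapped in the 3′-UTR, at chr4:149649383-149650032 and chr4:149649255-149650777. One coding place of *Inppl1*, which encodes SHIP2, was also shared by the WT lists, at chr7:101824182-101824559 and chr7:101823893-101824559. On *Pik3ap1* (chr19:41307974-41308531 and chr19:41375846-41376239), as on *Inpp5d*, the WT peaks lay apart. The WT-1 peak on *Pik3ap1* had 462 of its 558 bases outside the longest transcript. In the KO lists, *Depdc5* had the same coordinates in both, chr5:32990943-32991250 over the stop codon, and *Phlpp2*, a phosphatase that acts on AKT, had overlapping stop codon peaks at chr8:109940185-109941142 and chr8:109940365-109941139.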

How the data were processed

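The authors deposited 1 peak list per mouse, with a score for each peak. The submitters' processing notes name cutadapt 1.9.3, HISAT2 2.0.4 and build mm10 (GRCm38), and the form of the peak names is that of MACS. The settings of the peak caller are not given in the sources used here. The depth of the libraries is unknown. Scores were used to rank peaks within a list.

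Peaks were assigned by at least 1 bp of same-strand overlap with exons of coding transcripts in the basic annotation of GENCODE M21, which placed 94.5% to 96.0% of each list's peaks. Positions and codons refer to the longest coding transcript, and sequences were read from the RefSeq GRCm38 genome, where all 9 members had ATG at the annotated start and a stop codon at the annotated end. Peaks that shared at least 1 bp on a strand were merged into regions. The exact permutation test over 6 labellings cannot give a p below 0.33. Named pathway genes are those with a peak in both lists of 1 genotype and in neither of the other and, per role, up to 3 with a peak in all 4 lists and the most peaks. Some results for single genes of the marker and pathway lists are not reported here. The members and lists were chosen with earlier results of these data known. Alternatives were stricter scores, assignment by midpoints, other rules of overlap, a replicate block and each list left out in turn. Functions were tested on simulated data. Python 3.11.15, pysam 0.24.0, samtools 1.23.1, numpy 2.4.6 and matplotlib 3.10.9 were used.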

Additional observations from a re-analysis of the deposited data

How the results depend on the processing

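Across 97 alternative values, 73 kept the direction of a difference or, for counts, stayed within 1.5 times, and the others are given here. With the 50% of peaks that scored highest, the difference in peaks on members reversed to 1.5, that in exon bases under peaks went from 2357.5 to 1169.5 (exact permutation p = 0.667), members in both WT lists and no KO list fell from 1 to 0, regions in both KO lists and no WT list rose from 0 to 3, and regions in all lists fell from 8 to 2. Fewer peaks enter this setting by construction. With a reciprocal overlap of 50%, 1 region was in both KO lists and no WT list. When every base was counted, the CDS held 40.5% of member peak bases as a mean of the lists, against 54.9% by midpoints, and GGAC was in the central 200 bp of 79.6% of member peaks, against 98.4% for whole peaks.

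With each list left out in turn, the difference in members with a peak ranged from -1.5 to 0.5, reversing to 0.5 without KO replicate 2 and reaching 0 without WT replicate 1. That in peaks on members ranged from -3.5 to -1.5, in exon bases under peaks from 1314 to 3401 and in pathway genes from -4 to -3. Members in WT lists alone ranged from 1 to 2 and in KO lists alone from 0 to 1, regions in WT lists alone from 1 to 4 and in KO lists alone from 1 to 2, and regions in all remaining lists from 9 to 10.

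The study's methods name Cre-negative littermates as controls, but neither they nor the labels say that mice with equal replicate numbers share a litter or day. Over 6977 genes the differences between replicates 1 and 2 in peaks per gene had a correlation of -0.00826 between WT and KO. With the replicate numbers as a replicate block, p was 1 for members with a peak and 0.5, the smallest the 4 swaps allow, for peaks, exon bases and pathway genes. In at least 1 pair, 2 members were in the WT list alone, 2 in the KO list alone, 10 regions in the WT list alone and 7 in the KO list alone, a looser rule than presence in both lists. Use of the exons of all transcripts was chosen after seeing the data and reversed no difference. It added 4 peaks, 1 on *Pik3r1* in KO-2 and 3 on *Rictor* in WT-1, WT-2 and KO-2, and the exact permutation p for exon bases became 0.667. Leaving out each member in turn was also chosen after seeing the data. The difference in exon bases then ranged from 540, without *Foxo3*, to 3166, with p of 0.667 by the exact permutation test without *Irs1*, *Foxo3*, *Foxo4* or *Tsc1*, and that in peaks from -3 to -1, the latter without *Foxo1*. For peaks the exact permutation p was 1 without *Foxo1* and 0.667 without *Inpp5d* or *Rictor*.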
